A study of Danio rerio with 26 samples.

Results

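The interferon regulatory factors (IRFs) were followed in brains of male zebrafish (Danio rerio) kept with rotenone, a plant compound that blocks complex I of the respiratory chain in mitochondria. Members were the rows of the count tables whose symbol is irf or IRF, a number and at most the letter a or b, with a mean of at least 0.5 counts per 1000000 (CPM) over all 26 libraries. The threshold left 10 genes of 13 with such a symbol, out of 32105 genes in the tables. Of all genes, 19494 met the same threshold. The member nearest to it was irf10, with a mean of 0.978 CPM, and of the 3 genes under it, irf4b and irf1a had means of 0.332 and 0.0907 CPM.

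The libraries came from 3 groups, each of brain RNA from males. A group of 10 libraries came from 1 year old fish of strain AB JxTu at 3.75 nM rotenone. Another 9 came from 1 year old fish of the same strain at 37.5 nM. The last 7 came from 3 year old fish at 37.5 nM, whose strain label is AB JxTu Tg(flk:mCherry), a transgene named for flk, a receptor gene active in endothelium. Every group carries rotenone, so no untreated background was measured. Age and the transgenic strain cannot be told apart, and neither can dose and count table, since the authors tabulated the 3.75 nM libraries separately. Each title carries a zebrafish number of its own, and replicate numbers below follow accession order and do not pair samples. Library totals lay between 20.6 and 36.0 in units of 1000000 counts, so that 1 CPM was 20.6 counts in the smallest library. Markers of neurons summed to between 10090 and 12610 CPM in every library, and 12 libraries also carried raised markers of neighbouring tissue.

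Members of this family share a DNA-binding domain and act on the promoters of interferons and of interferon-stimulated genes. IRF3 and IRF7 wait in the cytosol until sensors of foreign nucleic acid lead to their phosphorylation, and then switch on interferon genes. IRF9 acts with STAT2 on DNA once a cell has received type I interferon. IRF8 and IRF4 also steer blood lineages, and zebrafish larvae without irf8 lack microglia, the macrophages of the brain.

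At 37.5 nM, 6 of the 10 members were higher in 3 year old than in 1 year old fish and none was lower. They were irf9, IRF8, irf10, irf1b, IRF4 and IRF5, with differences from 1.48-fold for IRF5 to 2.96-fold for irf10. Of all 19887 genes tested, 4.92% were called higher at the same threshold, an adjusted p under 0.05 in edgeR's quasi-likelihood test. The log2 fold changes of all 10 members were positive, with a median of 0.59 against 0.0068 over all genes. The members irf2b, irf2a, IRF7 and irf3 did not pass. Because brain RNA was read in bulk, a change in the number of cells that carry a transcript and a change in transcript per cell cannot be told apart.

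**Figure D1:**
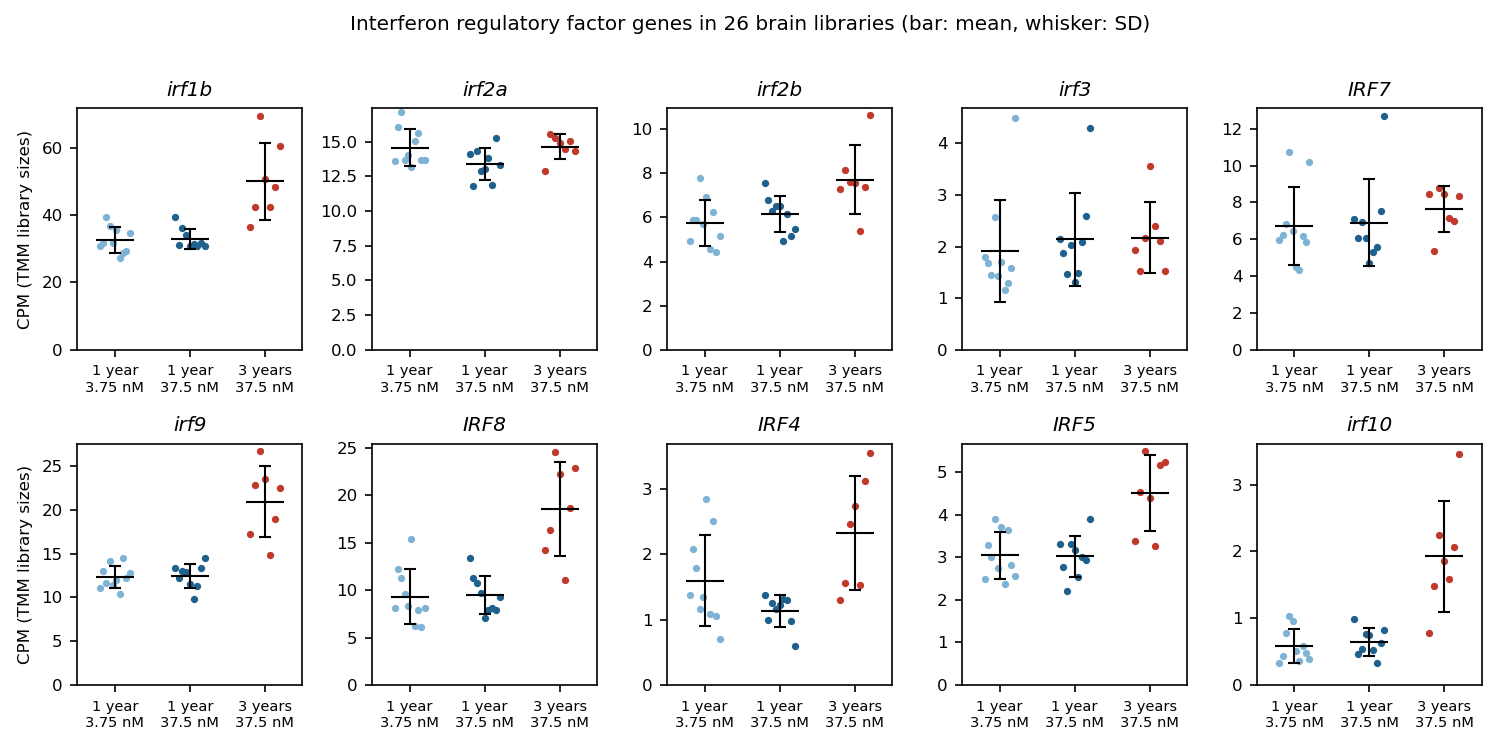
CPM of each member in each library (points, with TMM-scaled library sizes), by group, with the group mean (bar) and SD (whisker). The 7 points of 3 year fish lie above all 19 points of 1 year fish for irf9, between 14.8 and 26.7 CPM, while those of irf3 and IRF7 lie within the range of the 1 year fish.

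The gene irf1b (ENSDARG00000043249) belongs to the IRF1 branch, activators that answer interferon gamma and drive antigen presentation genes. Its lowest, median and highest levels were 27.2, 31.8 and 39.4 CPM in 1 year fish at 3.75 nM. At 37.5 nM they were 30.8, 31.5 and 39.4 CPM in 1 year fish and 36.6, 48.3 and 69.6 CPM in 3 year fish. Of the 7 older fish, 6 lay above every 1 year fish at 37.5 nM, and the remaining library lay within their range. The means were 32.9 ± 3.01 (SD, n = 9) and 50.1 ± 11.5 CPM (SD, n = 7), a log2 fold change of 0.60 (SE 0.11, edgeR adjusted p = 0.00425). Its 95% confidence interval ran from 1.29-fold to 1.78-fold.

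The paralogs irf2a (ENSDARG00000007387) and irf2b (ENSDARG00000040465) belong to the IRF2 branch, which occupies the same DNA elements as IRF1 and often restrains it. At 37.5 nM, irf2a lay between 11.8 and 15.3 CPM in 1 year fish, with a median of 13.3, and between 12.9 and 15.6 CPM in 3 year fish, with a median of 14.9. The ranges overlapped over most of their width, and the log2 fold change was 0.13 (SE 0.07, edgeR adjusted p = 0.234). For irf2b the levels were 4.92, 6.31 and 7.54 CPM in 1 year fish and 5.37, 7.55 and 10.6 CPM in 3 year fish, again as lowest, median and highest. Here 4 of 7 older fish lay above the highest 1 year fish, and the log2 fold change of 0.32 (SE 0.12) had an edgeR adjusted p of 0.112. Its interval, from 1.04-fold to 1.49-fold, reaches the 1.48-fold difference of IRF5. Without replicate 5 of the 3 year fish irf2b was called, with a log2 fold change of 0.39 (edgeR adjusted p = 0.0355).

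The interferon inducers irf3 (ENSDARG00000076251) and IRF7 (ENSDARG00000045661) gave no call. At 37.5 nM, irf3 ranged from 1.31 to 4.30 CPM in 1 year fish (median 2.03) and from 1.53 to 3.57 CPM in 3 year fish (median 2.1). No 3 year library lay above the highest 1 year library. The log2 fold change of irf3 was 0.01 (SE 0.24, edgeR adjusted p = 0.984), with an interval from 0.706-fold to 1.44-fold. For IRF7 the levels were 4.72, 6.08 and 12.7 CPM in 1 year fish and 5.34, 8.35 and 8.80 CPM in 3 year fish. The older fish lay inside the range of the younger ones, since the highest IRF7 level of the comparison was that of a 1 year fish. Its log2 fold change was 0.14 (SE 0.18, edgeR adjusted p = 0.647). Without that fish, replicate 9, it was 0.31 (edgeR adjusted p = 0.149).

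The gene irf9 (ENSDARG00000016457), which binds DNA with STAT2 after type I interferon, separated the ages without overlap. Its levels were 10.4, 12.1 and 14.5 CPM in 1 year fish at 3.75 nM, taken as lowest, median and highest. At 37.5 nM they were 9.80, 12.9 and 14.5 CPM in 1 year fish and 14.8, 22.5 and 26.7 CPM in 3 year fish. All 7 older fish lay above all 19 younger ones. Against the 9 younger fish at 37.5 nM alone, non-overlap with the older fish higher held for 1 of 10 members and 0.458% of all genes tested. The share of genes apart from all 19 was not counted. The means were 12.4 ± 1.39 (SD, n = 9) and 20.9 ± 4.09 CPM (SD, n = 7), a log2 fold change of 0.75 (SE 0.11, edgeR adjusted p = 0.00127) with an interval from 1.42-fold to 1.97-fold.

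The gene IRF8 (ENSDARG00000056407), the macrophage and microglia factor, had levels of 6.09, 8.20 and 15.4 CPM in 1 year fish at 3.75 nM. At 37.5 nM they were 7.10, 9.27 and 13.4 CPM in 1 year fish and 11.02, 18.6 and 24.5 CPM in 3 year fish. Only the lowest of the 7 older fish fell within the range of the 1 year fish at 37.5 nM. The log2 fold change was 0.96 (SE 0.16, edgeR adjusted p = 0.00315), with an interval from 1.54-fold to 2.48-fold.

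The gene IRF5 (ENSDARG00000045681), which in mammals acts downstream of Toll-like receptors in myeloid cells, lay at 2.22, 3.02 and 3.91 CPM in 1 year fish and 3.28, 4.53 and 5.51 CPM in 3 year fish at 37.5 nM. There 5 of 7 older fish lay above the highest 1 year fish. The log2 fold change was 0.57 (SE 0.14, edgeR adjusted p = 0.0204).

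The gene IRF4 (ENSDARG00000006560), in mammals a factor of lymphocytes and of some dendritic cells, lay at 0.596, 1.23 and 1.38 CPM in 1 year fish and 1.31, 2.46 and 3.54 CPM in 3 year fish at 37.5 nM. In 6 of 7 older fish it was above the highest 1 year fish of that dose, and the log2 fold change was 1.03 (SE 0.22, edgeR adjusted p = 0.0110). The 1 year fish at 3.75 nM reached further up, with levels of 0.707, 1.36 and 2.84 CPM, and overlapped with the older fish over most of their range. Against these 10 fish the log2 fold change of IRF4 was 0.55 (SE 0.28, edgeR adjusted p = 0.251).

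The gene irf10 (ENSDARG00000027658), a branch that fish and birds have and that humans and mice lack, changed most. Its levels were 0.327, 0.497 and 1.03 CPM in 1 year fish at 3.75 nM, 0.323, 0.629 and 0.991 CPM in 1 year fish at 37.5 nM, and 0.774, 1.86 and 3.46 CPM in 3 year fish. In all 3 groups it was counted in every library, on 9 to 120 reads. The older fish lay above the younger ones in 6 of 7 libraries, with the remaining one inside the 1 year range. The log2 fold change at 37.5 nM was 1.57 (SE 0.27, edgeR adjusted p = 0.00334), an interval from 2.00-fold to 4.39-fold.

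**Figure D2:**
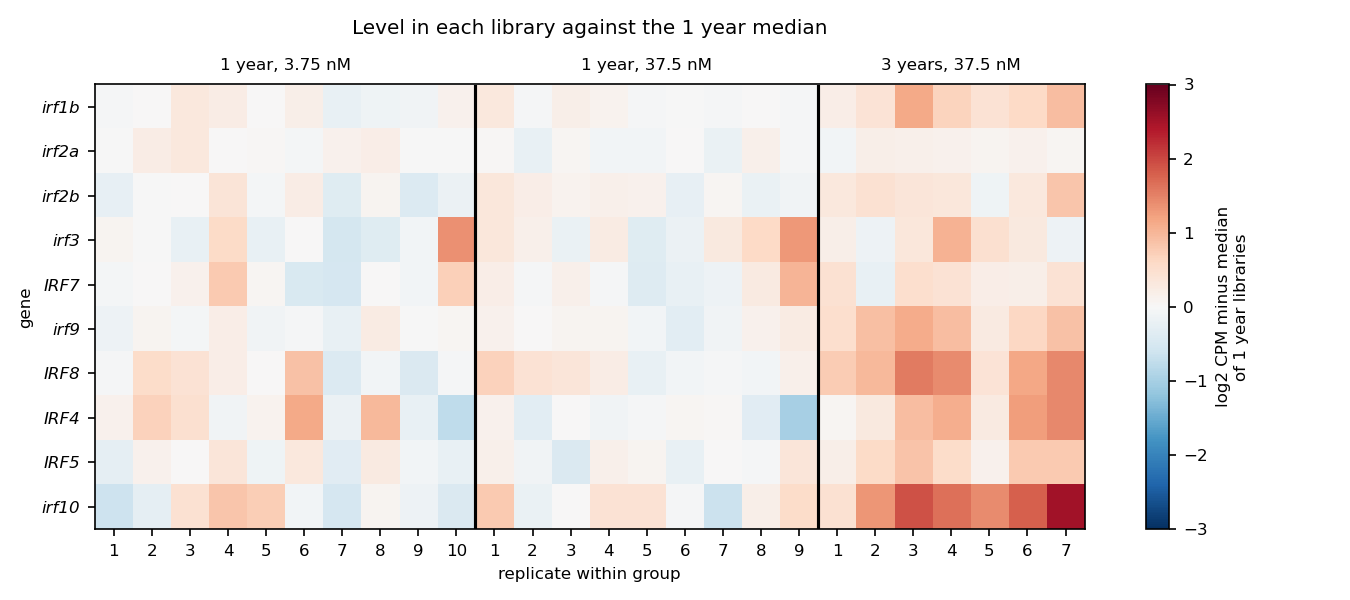
Level of each member (rows) in each library (columns, by group and replicate), as log2 CPM minus the median of the 19 libraries of 1 year fish, on a colour scale from blue (lower) to red (higher). Among 3 year fish, replicates 1 and 5 are palest for the genes called, replicates 3 and 7 darkest, and irf3 and IRF7 are darkest in 1 year fish.

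The 3 year fish did not carry the rise equally. Averaged over the 6 genes called, they lay 0.36 to 1.33 log2 units above the 1 year median, and replicates 1 and 5 were lowest, at 0.36 and 0.49. Replicate 1 was among the 2 lowest of its group for all 6 genes, whereas replicates 6 and 7 lay above every 1 year library for all 6. The 1 year fish lay between -0.31 and 0.40 on the same scale, so the lowest 3 year library was within their range. The members were chosen by name and the 6 genes by their call, so these averages are a description.

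The 3 genes under the threshold were too low for the test after the filter on low counts. The gene irf4b (ENSDARG00000055374), a paralog of IRF4, had a median of 0.254, 0.244 and 0.406 CPM in 1 year fish at 3.75 nM, 1 year fish at 37.5 nM and 3 year fish. Without the filter its log2 fold change with age at 37.5 nM was 1.05 (SE 0.44, edgeR adjusted p = 0.160). The gene irf1a, a paralog of irf1b, had no count in 6 libraries.

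The question of dose was addressed by the 1 year fish at 37.5 and at 3.75 nM. None of the 10 members was called in either direction, against 0.0508% of all 19691 genes tested (10 genes). At an unadjusted p under 0.05 there was 1 member, IRF4, against 1821 of all genes, and DESeq2 also called no member. IRF4 had means of 1.13 ± 0.244 CPM (SD, n = 9) at 37.5 nM and 1.60 ± 0.692 CPM (SD, n = 10) at 3.75 nM, a log2 fold change of -0.49 (SE 0.23, edgeR adjusted p = 0.534). The intervals were narrow for irf1b, from 0.913-fold to 1.12-fold, and for irf9, from 0.905-fold to 1.12-fold. They were wide for irf3, from 0.771-fold to 1.62-fold, so that a difference as large as that of irf1b between the ages is not excluded there.

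Set against the 1 year fish at 3.75 nM, the 3 year fish were higher in 5 members and lower in none, where 4.43% of all 19952 genes tested were called higher. The comparison shares its 3 year libraries with the one at 37.5 nM, and its groups differ in dose, strain label and count table as well as age. The log2 fold changes were 0.63 for irf1b (SE 0.11, edgeR adjusted p = 0.00381), 0.77 for irf9 (SE 0.11, edgeR adjusted p = 0.000742) and 1.00 for IRF8 (SE 0.19, edgeR adjusted p = 0.00510). They were 0.57 for IRF5 (SE 0.14, edgeR adjusted p = 0.0212) and 1.73 for irf10 (SE 0.29, edgeR adjusted p = 0.00231). IRF4 was not called here, as given above, and irf2b had 0.43 (SE 0.13, edgeR adjusted p = 0.0587). Leaving out replicate 3 or 7 of the 3 year fish ended the call of IRF5 (edgeR adjusted p = 0.0513 and 0.0509). Leaving out replicate 5 of the 3 year fish, or replicate 4 or 6 of the 1 year fish at 3.75 nM, added irf2b (edgeR adjusted p = 0.0190, 0.0258 and 0.0475).

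**Figure D3:**
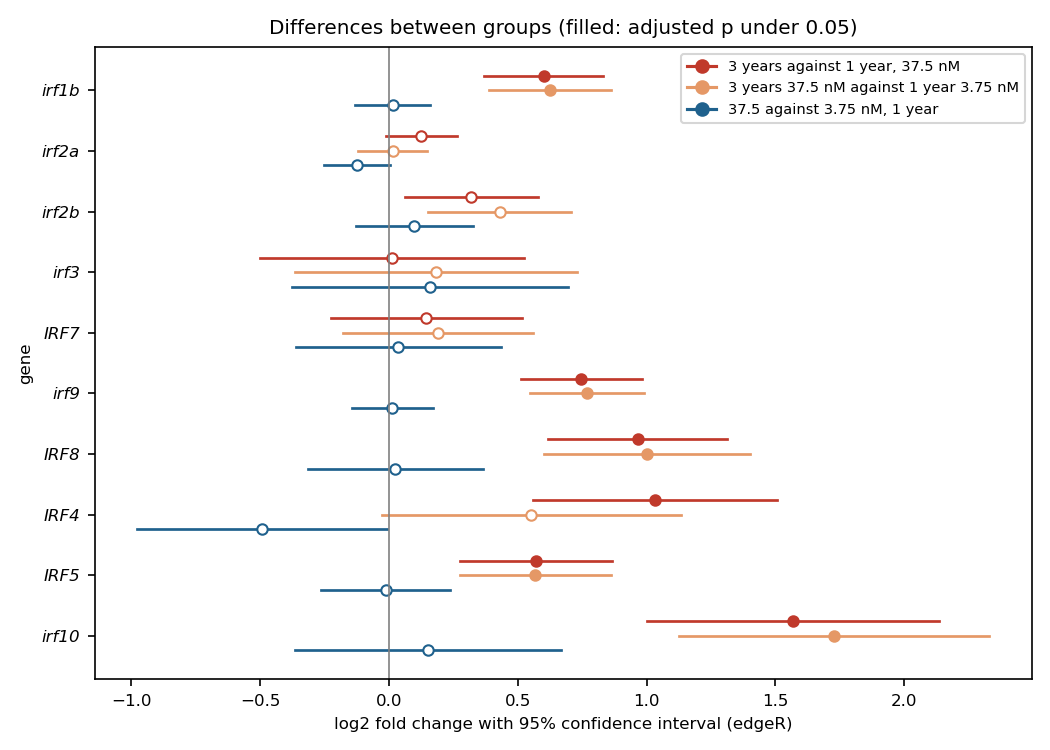
Log2 fold change of each member (points) with its 95% confidence interval (lines) in 3 comparisons, filled where the edgeR adjusted p is under 0.05. The dose intervals (blue) of 9 members cross 0, while 6 members at 37.5 nM (red) and 5 against 3.75 nM (orange) are filled, and all filled points lie to the right of 0.

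The age calls were also read within parts of the series. Title numbers form a lower run (163 to 181) and a higher run (189 to 202), each with libraries of all 3 groups. The labels do not say what separates them. At 37.5 nM the mean log2 difference of the 6 genes called was positive in each run. It was 0.67 and 1.16 for IRF8, 0.98 and 1.75 for irf10, 0.50 and 1.26 for IRF4, 0.44 and 0.68 for irf1b, 0.77 and 0.71 for irf9, and 0.60 and 0.52 for IRF5, lower run before higher run. With 3 against 4 libraries of the lower run no member passed, and with 4 against 5 of the higher run 5 did, all of the 6 but IRF5. Over all genes these fits called 16 and 1065, against 1549 with all libraries. Marker scores of neighbouring tissue were those of eye and pineal, skeletal muscle, skin and pituitary. In 12 libraries, 2 of them of 3 year fish (replicates 5 and 7), at least 1 score lay over 1.5 log2 units above the median. Without these libraries 2 members passed at 37.5 nM, irf9 with a log2 fold change of 0.71 (edgeR adjusted p = 0.0493) and IRF8 with 0.96 (edgeR adjusted p = 0.0485). Calls over all genes fell to 135 in that fit of 5 against 4 libraries. The log2 fold changes of the members no longer called were 0.60 for irf1b, 0.63 for IRF5, 1.22 for IRF4 and 1.44 for irf10 (edgeR adjusted p = 0.102, 0.165, 0.0997 and 0.0812), against 0.60, 0.57, 1.03 and 1.57 with all libraries. The part of dissection in the calls was not tested.

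The surroundings of the family were read from gene lists, with calls at 37.5 nM unless another comparison is named. The filter on low counts was applied per comparison, so a gene low in 1 year fish could be tested through its level in 3 year fish. At 37.5 nM it passed 22 sensors and adaptors and 36 interferon-stimulated genes, against 19 and 32 for dose. It passed 16 brakes, 16 DNA-binding partners and 14 lymphocyte and granulocyte markers, against 15, 15 and 13 for dose. Over all 19887 genes tested at 37.5 nM, 4.92% were called higher and 570 genes lower. Against 1 year fish at 3.75 nM, 4.43% of 19952 genes were called higher. The interferon genes themselves were scarce. Of the 6 matched (ifnphi1 to ifnphi4, ifng1 and ifng1r), none passed the filter on low counts. Without the filter 1 ligand was called, and 1 was called in the higher run of title numbers alone. The summed level of the 6 was 0.160 to 0.629 CPM in 1 year fish at 3.75 nM, 0.220 to 0.436 CPM in 1 year fish at 37.5 nM and 0.484 to 2.09 CPM in 3 year fish. The type II interferon ifng1 had medians of 0.0384, 0.0333 and 0.440 CPM in that order, and 7 libraries held no count of it.

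Among nucleic acid sensors and adaptors upstream of IRF3 and IRF7, 5 of 22 genes tested were higher at 3 years, against 4.92% of all genes. In this list 1 was lower and 16 did not pass, with a median log2 fold change of 0.18. The 6 calls became 0 in the lower run of title numbers, 4 in the higher run and 0 without the libraries of high tissue scores. In these fits the calls over all genes also fell, as given above. SLC15A4, which recruits IRF5 to endosomal Toll-like receptors in mammals, went from 3.34 ± 0.661 to 5.86 ± 1.77 CPM, a log2 fold change of 0.80 (edgeR adjusted p = 0.0129). UNC93B1, the chaperone that brings these receptors to endosomes, had 0.68 (edgeR adjusted p = 0.0169). IFIH1, a sensor of double-stranded RNA, had 0.86 (edgeR adjusted p = 0.0367). Against 1 year fish at 3.75 nM, 0 of the 22 genes passed, with log2 fold changes of 0.33 for SLC15A4, 0.53 for UNC93B1 and 0.64 for IFIH1 (edgeR adjusted p = 0.377, 0.0762 and 0.0815). Among interferon receptors, JAK kinases and STAT factors, 3 of 15 were higher, against 4.92% of all genes, and none lower, with a median of 0.22. They were JAK1 with 0.22 (edgeR adjusted p = 0.0238), stat6 with 0.48 (edgeR adjusted p = 0.0258) and jak2a with 0.23 (edgeR adjusted p = 0.0443). These 3 calls became 0 in the lower run, 2 in the higher run and 0 without the libraries of high tissue scores. Against 1 year fish at 3.75 nM, 0 of the 15 passed, with 0.17, 0.34 and 0.20 for JAK1, stat6 and jak2a (edgeR adjusted p = 0.0538, 0.110 and 0.0615).

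Among brakes on interferon signalling, 3 of 16 were higher, against 4.92% of all genes, and 1 lower, with a median of 0.16. The 4 calls became 0 in the lower run, 2 in the higher run and 0 without the libraries of high tissue scores. The inhibitors of JAK kinases socs1b and SOCS1 had log2 fold changes of 1.8 and 1.18 (edgeR adjusted p = 0.00421 and 0.00707), and the phosphatase PTPN6 had 0.69 (edgeR adjusted p = 0.0226). The medians of socs1b were 0.243 and 0.244 CPM in 1 year fish at 3.75 and 37.5 nM, and 0.745 CPM in 3 year fish. It passed the filter on low counts only with the 3 year fish in the comparison. Against 1 year fish at 3.75 nM, socs1b and SOCS1 passed, and PTPN6 did not (log2 fold change 0.44, edgeR adjusted p = 0.220). Among DNA-binding partners of IRF4 and IRF8, 2 of 16 were higher, against 4.92% of all genes, and none lower, with a median of 0.14. These were IKZF1, a lymphoid factor, with 0.64 (edgeR adjusted p = 0.00480), and SPI1 (ENSDARG00000000767), the myeloid factor that binds DNA with IRF8, with 0.76 (edgeR adjusted p = 0.0155). Against 1 year fish at 3.75 nM, IKZF1 passed and SPI1 did not (log2 fold change 0.58, edgeR adjusted p = 0.0916). Of the 4 genes named as IRF2-binding proteins, IRF2BPL was lower, with a log2 fold change of -0.22 (edgeR adjusted p = 0.0222), and 3 did not pass. This call was lost with library totals only, in each run of title numbers and without the libraries of high tissue scores. Against 1 year fish at 3.75 nM, IRF2BPL had -0.14 (edgeR adjusted p = 0.194).

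Interferon-stimulated genes are those switched on through this pathway. Of 36 tested, 13 were higher at 3 years, against 4.92% of all genes. None was lower and 23 did not pass, with a median log2 fold change of 0.89. The light chain of MHC class I, b2m, went from 117.5 ± 20.2 to 281.0 ± 92.3 CPM, a log2 fold change of 1.25 (edgeR adjusted p = 0.000878). The galectin gene lgals9l1 had 1.81 (edgeR adjusted p = 0.00111) and the peptide transporter TAP1 had 1.14 (edgeR adjusted p = 0.00247). Against 1 year fish at 3.75 nM, 15 of 36 were higher and none lower. At 37.5 nM the 13 calls became 0 in the lower run of title numbers, 12 in the higher run and 1 without the libraries of high tissue scores, fits in which the calls over all genes also fell, as given above. In the dose comparison no gene of any of these lists passed edgeR's test.

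Markers of immune cells moved with age beside the IRFs. At 37.5 nM, 4.92% of all genes tested were called higher. Of 23 markers of microglia and macrophages, 11 were higher at 3 years and none lower, with a median log2 fold change of 0.60. Their summed level was 1473 to 2329 CPM in 1 year fish at 3.75 nM, 1485 to 2253 CPM in 1 year fish at 37.5 nM and 1838 to 2977 CPM in 3 year fish, and none was at 0 in all libraries of a group. The 11 calls became 0 in the lower run, 9 in the higher run and 0 without the libraries of high tissue scores. Of 14 markers of lymphocytes and granulocytes tested, 7 were higher and none lower, with a median of 0.82. Those higher were cd4-1, cd8a, ZAP70, lck, il2rb, il7r and ighm. Of the others, TCF7 had a log2 fold change of -0.15, foxp3a of -0.31, RAG1 of -1.98 and cd247 of -0.055, none of which passed. At 37.5 nM the medians of RAG1 were 0.397 CPM in 1 year fish and 0.226 CPM in 3 year fish. Its mean over all 26 libraries was above both, at 1.19 CPM. The 7 calls became 0 in the lower run, 7 in the higher run and 2 without the libraries of high tissue scores. The summed level of the list, most of it GATA3, which neurons also express, was 110.6 to 179.3, 134.9 to 226.2 and 134.2 to 193.0 CPM. The T cell marker cd8a had medians of 0.131, 0.140 and 1.79 CPM in these groups, and cd4-1 had 0.483, 0.397 and 2.16 CPM. The marker cd8a passed the filter on low counts only with the 3 year fish in the comparison. At 37.5 nM no marker of neurons, radial glia, oligodendrocytes or endothelium was higher, with 1 oligodendrocyte marker called once title run was a covariate. In the same comparison 2 of 17 neuronal and 2 of 18 endothelial markers were lower, against 570 of all 19887 genes. Against 3.75 nM, 1 oligodendrocyte marker, OLIG2, was higher. At 37.5 nM, markers of skin and mucosa had positive log2 fold changes in 13 of 13, with a median of 0.65 and no call. The medians were -2.65 for 7 markers of eye and pineal and -3.50 for 11 of skeletal muscle, with no call, and 1 of 3 pituitary markers was lower. The 1 year fish at 37.5 nM held libraries far above the median of their group. Their summed muscle markers had lowest, median and highest levels of 29.5, 57.7 and 2262 CPM, against 20.3, 33.0 and 66.3 CPM in 3 year fish. For eye and pineal the levels were 6.90, 11.6 and 316.5 CPM, against 4.475, 10.0 and 20.5 CPM. The part of cell numbers and of other tissue in the levels of the IRFs was not tested.

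Within groups, several members varied together. Levels were taken as log2 CPM minus the mean of the group, so that age and dose were removed, and related over the 26 libraries. Among 45 relations of 2 members, 12 had a permutation p under 0.05 after Benjamini-Hochberg adjustment, and 11 of these also by Spearman's rho. Among 30 relations of a member with a list score (the mean log2 CPM of the list) the numbers were 14 and 9. The points share library depth and cell composition.

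IRF5 and IRF8 followed the microglia and macrophage score. For IRF5, Pearson's r was 0.816 (Spearman's rho 0.822, adjusted permutation p = 0.0006 and 0.00045), with 0.916 in the lower and 0.736 in the higher run of title numbers. For IRF8, r was 0.728 (rho 0.762, adjusted permutation p = 0.0006 and 0.00045), with 0.726 and 0.813 in the runs. Without the 2 libraries farthest from the median of the x axis, r was 0.772 for IRF5 and 0.782 for IRF8. For irf9, r with this score was 0.649 (rho 0.643, adjusted permutation p = 0.00486 and 0.00547), 0.584 without the 2 farthest libraries, and 0.771 and 0.575 in the runs. The same score was related to irf1b, irf10 and irf2b, with r of 0.597, 0.543 and 0.518 (adjusted permutation p = 0.0115, 0.0257 and 0.031). For irf2a, irf3, IRF7 and IRF4 it did not pass. With the lymphocyte and granulocyte score, r was 0.517 for IRF8, 0.508 for irf1b, 0.499 for IRF5 and 0.462 for irf2b. Their adjusted permutation p was 0.0257, 0.0257, 0.0334 and 0.0412 for r, and none passed by rho. Among the granulocyte genes of that list, only lyz was matched, so the score is mostly of other genes.

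IRF8 was also related to irf1b (r = 0.727, rho 0.787, adjusted permutation p = 0.00202 and 0.00135) and with irf2b (r = 0.704, rho 0.666, adjusted permutation p = 0.00210 and 0.00960). Without the 2 farthest libraries these were 0.745 and 0.636. In the runs they were 0.768 and 0.790 for irf1b, and 0.383 and 0.766 for irf2b.

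The levels of the inducers irf3 and IRF7 were related to each other (r = 0.769, rho 0.591, adjusted permutation p = 0.00202 and 0.0210), with r of 0.719 and 0.834 in the runs and 0.596 without the 2 farthest libraries. With the score of interferon-stimulated genes, r was 0.689 for irf3 (rho 0.673, adjusted permutation p = 0.00225 and 0.00540) and 0.686 for IRF7 (rho 0.545, adjusted permutation p = 0.00225 and 0.0276). In the runs these were 0.926 and 0.644 for irf3 and 0.668 and 0.755 for IRF7, and without the 2 farthest libraries 0.595 and 0.503. With IRF8, r was 0.0934 for irf3 and 0.156 for IRF7 (adjusted permutation p = 0.712 and 0.577). The score was also related to IRF5 (r = 0.604, rho 0.617, adjusted permutation p = 0.0114 and 0.0110), with 0.754 and 0.488 in the runs and 0.477 without the 2 farthest libraries. For irf9, r with the score was 0.489 (adjusted permutation p = 0.0411), and rho, 0.475, did not pass (adjusted permutation p = 0.0572). In the runs r was 0.433 and 0.609 for irf9, and 0.391 without the 2 farthest libraries. IRF7 was also related to irf9 (r = 0.466, rho 0.525, adjusted permutation p = 0.0367 and 0.0344), with 0.214 and 0.570 in the runs and 0.350 without the 2 farthest libraries. The gene irf9 had a higher r with IRF5 (0.689) and with IRF8 (0.541), with adjusted permutation p = 0.0045 and 0.0353. By rho these also passed (0.674 and 0.52, adjusted permutation p = 0.0096 and 0.0446). In the runs r was 0.765 and 0.687 with IRF5, and 0.596 and 0.482 with IRF8. The differences between these correlations were not tested. Replicate 9 of the 1 year fish at 37.5 nM had the highest irf3 and IRF7 of its group, at 4.30 and 12.7 CPM, and replicate 10 of those at 3.75 nM had irf3 at 4.50 and IRF7 at 10.2 CPM. In these 2 libraries IRF4 was lowest in its group, at 0.596 and 0.707 CPM. In replicate 4 of the 3 year fish, with the highest irf3 of its group, IRF4 was at 2.73 CPM (group median 2.46). Over all libraries, r with IRF4 was -0.448 for irf3 and -0.393 for IRF7, and neither passed (adjusted permutation p = 0.0696 and 0.11). Without the 2 farthest libraries these were -0.0782 and -0.0758.

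**Figure D4:**
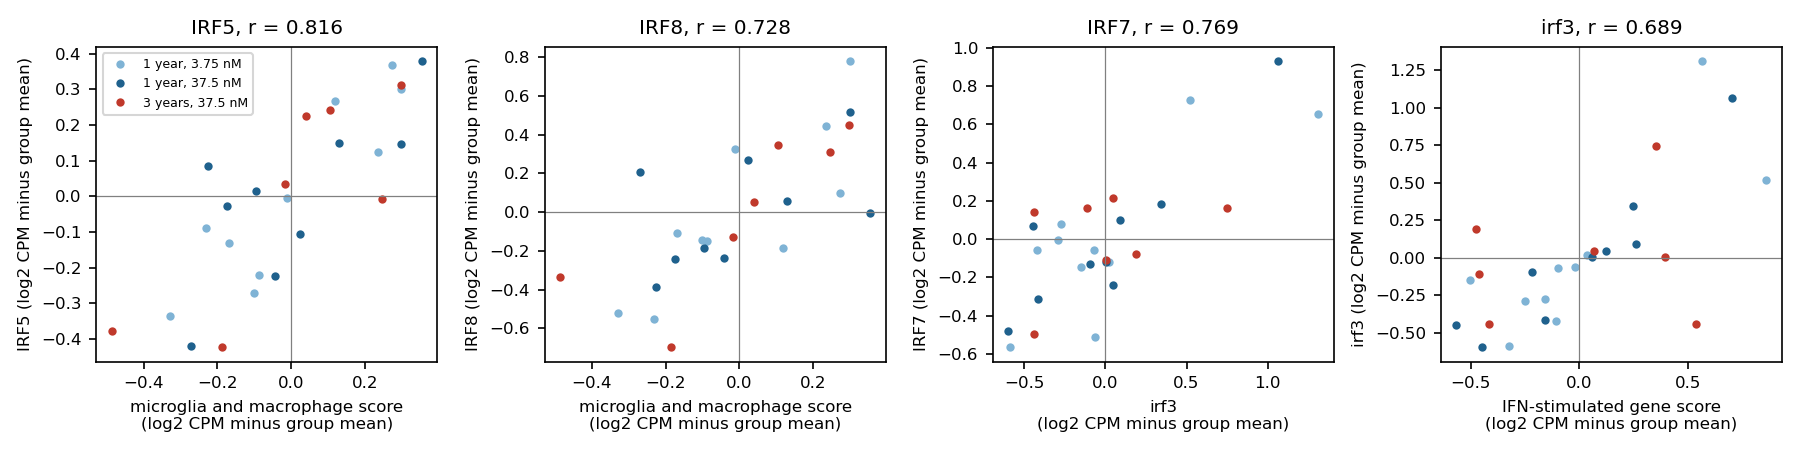
Levels within groups (log2 CPM minus the group mean) of IRF5 and IRF8 against the microglia and macrophage score, of IRF7 against irf3, and of irf3 against the interferon-stimulated gene score, with 1 point for each of 26 libraries coloured by group. The r values are 0.816, 0.728, 0.769 and 0.689, and in the panels with irf3 a few libraries stand apart toward the upper right.

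**Figure D5:**
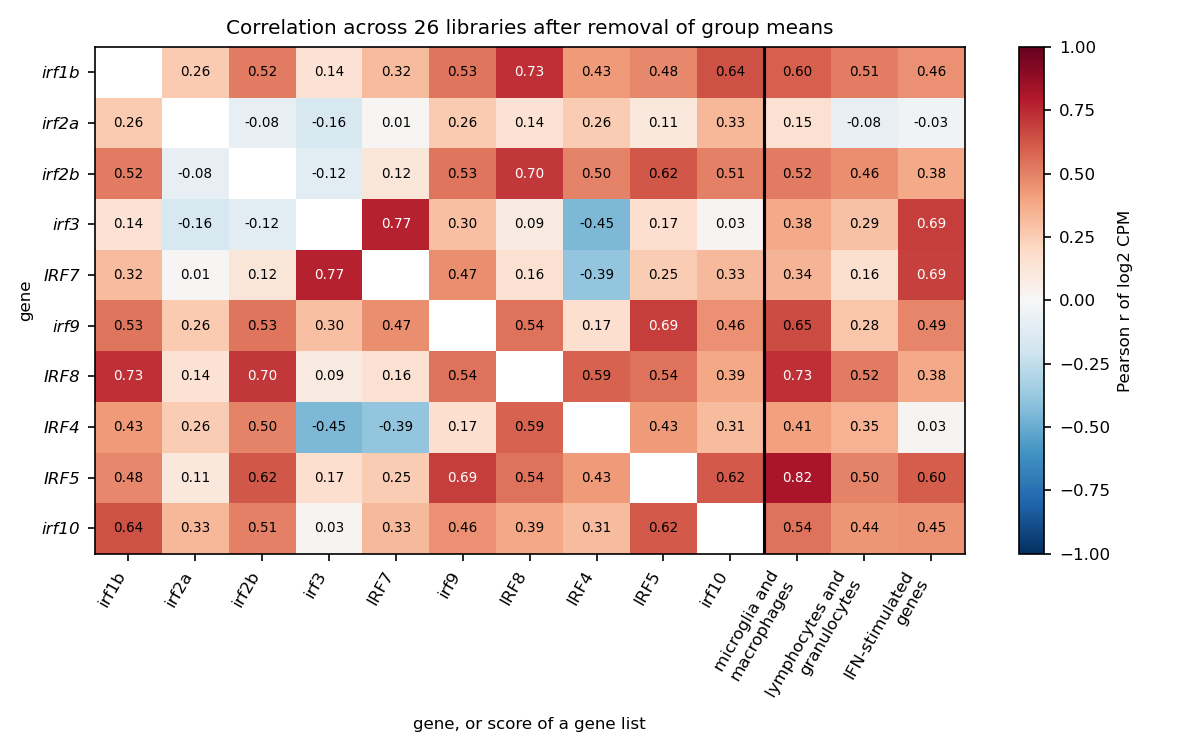
Pearson's r across the 26 libraries after removal of group means, between each 2 members and between members (rows) and 3 list scores (last 3 columns), from blue (-1) to red (1), with the diagonal left blank. Of the members, irf3 has r above 0.5 with IRF7 and no other, and IRF5 has the highest r with the microglia and macrophage score, 0.816.

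The genes most like each called member within groups were sought among 17886 genes with a mean of at least 1 CPM. IRF8 was closest to vsir (r = 0.883), an immune checkpoint gene, to PTPN6 (0.867) and to MPEG1 (0.822), a macrophage pore protein. For irf9 these were laptm5 (0.832) and cd68 (0.819), both lysosomal proteins of leukocytes, and chp2 (0.767). For IRF5 they were LECT2 (0.837), cd74b (0.817), the invariant chain of MHC class II, and INPP5D (0.811), a phosphatase of blood cells. IRF4 was closest to si:ch211-214p16.1 (0.848), DEF6 (0.838) and hcst (0.831), the last an adaptor of lymphocyte receptors. For irf1b they were ERAP1 (0.837), the peptidase that trims MHC class I peptides, si:ch211-183d5.2 (0.822) and SMU1 (0.809). For irf10 they were calcoco2 (0.794), LECT2 (0.776) and si:ch211-108p6.4 (0.723). These are the highest of many values and serve as a description, with no test.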

How the data were processed

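Libraries of 26 brains were prepared, per the labels' protocols, with a TruSeq RNA kit (v2) that does not mark strand, so overlapping genes can share reads. The tools named in the submitters' processing notes are STAR 2.4.1d, featureCounts 1.4.6-p4 and CASAVA 1.8.2, with build GRCz10. How reads with several matches were counted is not given in the sources used here. The deposited tables hold raw counts per Ensembl gene. The deposited RPKM tables were not used, because the RPKM per count of a gene did not keep a constant ratio between libraries from gene to gene. Symbols came from an Ensembl table naming 26269 genes (81.8%), and 261 of 286 list symbols were matched.

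Fits used edgeR 4.0.16 in R 4.3.3 (filterByExpr, TMM, robust quasi-likelihood, Benjamini-Hochberg adjustment over all genes tested), with no covariate and only the 2 groups compared. CPM were scaled by TMM over all 26 libraries, membership by library totals. Correlations used 100000 permutations within groups and a prior count of 2, with adjustment over 30 or 45 relations. No libraries were duplicates (102 pairs, chi-square per degree of freedom 13.5 to 70.8). The p-values of the fits set a group difference against the spread between these fish, and the permutation p-values concern relations within groups.

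Members and lists were chosen with earlier results of these data known. The genes named are all members, up to 3 called genes with the smallest adjusted p at 37.5 nM from each list that is no marker list, SPI1, and the 3 genes most like each called member. The ligands and the marker genes named, among them cd8a, cd4-1, RAG1, GATA3 and OLIG2, are outside this rule and were chosen after their values were seen. Some genes of the family and of the lists are not reported here, nor are coordinates and sequences.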

Additional observations from a re-analysis of the deposited data

Results flagged for a closer look

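In 4 of 30 combinations of a member and a group, 1 library stood far from the rest of its group. For normally distributed values, chance gives such a gap in about 1 in 20 groups, and CPM need not be so distributed. Members are also related to each other, so the combinations are not independent. IRF7 was at 12.68 CPM in replicate 9 of the 1 year fish at 37.5 nM, where the next library was at 7.543. The same library had irf3 at 4.304 CPM, with the next at 2.584. In replicate 10 of the 1 year fish at 3.75 nM, irf3 was at 4.499 CPM, with the next at 2.569. In replicate 4 of the 3 year fish, irf3 was at 3.565 CPM, with the next at 2.403. The interferon-stimulated gene score, as log2 above the median of the 26 libraries, was 0.613 in the library at 37.5 nM, the highest of its group. It was 0.475 in the one at 3.75 nM, where replicate 4 had 0.772, and 1.11 in the 3 year fish, where replicates 6 and 7 had 1.148 and 1.294.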

How the results depend on the processing

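The 6 members called with age at 37.5 nM numbered 6 as well with DESeq2, without the filter, with upper quartile scaling, with library totals only, with limma voom, with title run as a covariate and with all libraries in 1 fit. Leaving out 1 library gave 6 to 7. The lower run of title numbers alone gave 0 members (16 of all genes), and leaving out libraries with high tissue scores gave 2 (135 of all genes), with the log2 fold changes of the 4 members lost given above. Against 3.75 nM, each run alone gave 1 and 2 in place of 5, and leaving out 1 library gave 4 to 6. DESeq2, limma voom, title run as a covariate and all libraries in 1 fit each gave 6 there, with irf2b added (adjusted p = 0.0291, 0.0242, 0.0475 and 0.0287). Leaving out libraries with high tissue scores gave 5, with irf2b gained (0.0454) and IRF5 lost (0.0735). For dose, every alternative gave 0. Calls over all genes at 37.5 nM numbered 1549 as reported and 942 to 2156 without single libraries, lowest without replicate 4 or 7 of the 3 year fish. The DESeq2 count, 2541, was the highest. The cause of these changes was not tested.

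The sign turned for uncalled members. Without libraries of high tissue scores, the log2 fold change with age at 37.5 nM was -0.14 for IRF7 and -0.19 for irf3, and in the lower run -0.0084 for irf3. For dose it was -0.14 for IRF7 and -0.021 for irf10 in the lower run, -0.012 for irf9, -0.094 for IRF8 and 0.067 for IRF5 in the higher run, and for IRF5 0.067 with limma voom and 0.027 without high tissue scores. Against 3.75 nM, irf2a had -0.023 in the lower run. Leaving out single libraries gave -0.15 to 0.21 for irf3 with age at 37.5 nM and -0.0044 to 0.042 for irf2a against 3.75 nM. For dose it gave -0.012 to 0.048 for irf1b, -0.018 to 0.056 for irf9, -0.037 to 0.13 for IRF8, -0.12 to 0.14 for IRF7, -0.067 to 0.040 for IRF5 and -0.035 to 0.40 for irf3.

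In the lower run, IRF4 fell to 0.57 from 1.03 and irf10 against 3.75 nM to 1.11 from 1.73. Without replicate 5 of the 3 year fish, irf2b was called as well. Membership was the same 10 genes by TMM-scaled CPM. The promoter motif search was not run. No paired analysis was possible because replicate numbers follow accession order and the titles share no number between groups. Depth limits irf10 and IRF4 most, at 9 and 18 counts in their lowest libraries.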
